A study of Homo sapiens with 6 samples.

Results

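Of 9 antioxidant genes measured in Meg-01 cells treated with propionate (C3), a product of bacterial fermentation in the gut, HMOX1 rose 1.63-fold and the other 8 were not called. Among these, CAT had a change of -17.9%, past the p-value gate of the call but not its fold change gate. The genes are targets of the transcription factor NRF2 and peroxide-handling enzymes: NFE2L2, NQO1, HMOX1, GCLC, GCLM, TXNRD1, SRXN1, GPX1, CAT and SOD2. They were taken as the rows of the read count table whose identifier pairs with these symbols, which found 9 of 10 symbols among 58735 genes. No row was paired with SOD2 in the gene name tables used, and it was not analysed here. Meg-01 is an established human megakaryoblastic cell line. The control group has 3 libraries of untreated cells, and the C3 group has 3 of cells given 500 µM sodium propionate for 48 h. Both 24 h and 48 h are named for the treatment in the study's methods. In a figure legend of the study the replicates are described as technical, so p-values measure the spread between libraries and need not include that between independent cultures.

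NRF2, the product of NFE2L2, is made continuously, held by the adaptor KEAP1 and handed to the proteasome. Oxidants and electrophiles modify KEAP1, NRF2 then escapes, pairs with a small MAF protein and binds antioxidant response elements (AREs) near genes for glutathione synthesis, thioredoxin reduction, quinone reduction and haem breakdown, while BACH1 competes for the same elements at HMOX1. Control lies largely in protein stability, so the mRNA of NFE2L2 is an indirect readout and the mRNAs of its targets are the usual one. In megakaryocytes and platelets, reactive oxygen species take part in maturation and activation, and GPX1 and CAT break down hydrogen peroxide.

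The ARE core, written TGACNNNGC with N for any base, was searched on both strands of the RefSeq promoter windows (GRCh38.p14, from 250 bases before to 50 bases after each annotated start). Of the 9 genes, 8 (all but HMOX1) had an entry in the table used, with 10 windows in all. The core was in 3 of these windows, 30.0%, against 13.35% of all 35116 windows, and the 3 belong to GCLM and TXNRD1. Counted by gene, the core was in 2 of 8, against 4384 of the 27305 genes with a window. The stretches around it are shown because NRF2 binds elements with this core, and the expression of both genes can be read beside the match. They are written 5′ to 3′ on the strand of the gene, with the core in capitals. In GCLM and at the second start of TXNRD1 the core reads on the opposite strand, so that its reverse complement is printed.

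GCLM, chr1:93909431-93909489, reverse strand, core 34 to 26 bases before the start: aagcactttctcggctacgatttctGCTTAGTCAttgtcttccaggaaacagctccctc

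TXNRD1, first start, chr12:104215655-104215713, forward strand, core 99 to 91 bases before the start: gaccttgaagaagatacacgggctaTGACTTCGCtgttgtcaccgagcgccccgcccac

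TXNRD1, second start, chr12:104286905-104286963, forward strand, core 102 to 94 bases before the start: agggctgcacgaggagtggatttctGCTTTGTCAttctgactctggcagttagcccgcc

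A further match in the first TXNRD1 window is not shown. The windows of CAT, GCLC, GPX1, NFE2L2, NQO1 and SRXN1 hold no match to these letters, which says nothing of elements farther away. A match is a description of sequence and no evidence of binding.

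Library totals lay between 16159449 and 22821722 counts. The comparison covered the 15078 genes that reached 10 counts in 3 or more libraries, all 9 genes among them, the lowest of them with 64 counts in a library (NQO1). Values are TMM-normalized counts, that is, counts scaled to the mean effective size of the 6 libraries. A gene was called when its adjusted p-value was below 0.01 and its fold change above 1.3 either way, the gates of the study. As a check of the labelled cell type, 11 of 13 megakaryocyte markers passed the count filter, among them ITGA2B at 12902 ± 390 normalized counts in control cells (SD, n = 3). Their summed level was 27560 to 28915 in control and 25726 to 28118 in C3 libraries, and 2 of them (GP1BA and TUBB1) were called lower, against 1.47% of all tested genes. At an adjusted p-value below 0.05 with any fold change, 3 were lower and 1 higher (ITGB3, 1.27-fold, edgeR adjusted p = 0.033), which is 27.3% and 9.09%, against 8.77% and 11.0% of all tested genes. PF4 and GP1BB had 0 counts in every library, which allows up to 3 counts in each. Other genes of the same strand share 100% of the exon bases of GP1BB and 52.1% of those of PF4. The counts therefore set no limit on the RNA of GP1BB, and for PF4 they speak only for its unshared bases. The summed level of 8 erythroid markers was 1270 to 1430 normalized counts in control and 1517 to 1557 in C3 libraries, with HBG1 and HBG2 at no more than 5 counts. That of 7 monocyte and granulocyte markers was 896 to 943 and 719 to 741, most of it LYZ, MPO and CSF1R. Their control means were 613, 223 and 85.2, while ELANE and FCGR3A were at 0 in the control libraries. The summed level of 6 lymphoid markers was 459 to 527 and 655 to 707, most of it NCAM1. Of these lists NCAM1 was called higher (1.48-fold, edgeR adjusted p = 3.3e-05) and the monocyte marker LYZ lower (0.70 of the control level, adjusted p = 4.7e-05). The part of these shifts in the results below was not tested.

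HMOX1 (ENSG00000100292, chromosome 22 of GRCh38, 35380361 to 35394214, forward strand) breaks haem down to biliverdin, iron and carbon monoxide and was the only one of the 9 genes that was called. Its normalized counts were 118, 127 and 117 in control and 203, 201 and 189 in C3 libraries. Every C3 library lay well above every control library, and the libraries of a group were close to each other. The mean went from 121 ± 5.76 to 198 ± 7.43 (SD, n = 3 each). This is a log2 fold change of 0.71 (standard error, SE, 0.13, 95% interval 0.45 to 0.97), with adjusted p = 2.5e-04 by edgeR's quasi-likelihood method. By p-value it ranked 419 among the tested genes. In bulk RNA a change in all cells and a change in the share of cells that express a gene cannot be told apart. A two-sided exact permutation over libraries gave p = 0.1, the least that 3 against 3 allow. The call held with each library left out in turn, with log2 fold changes of 0.69 to 0.75. The raw counts behind it were small, 98 to 120 in control and 178 to 241 in C3 libraries. No exon base of HMOX1 is shared with another annotated gene.

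One called gene among 9 is to be read against the whole table, in which 5.05% of the tested genes were called higher and 1.47% called lower. No gene of the 9 was called lower by edgeR, nor by DESeq2 or limma-voom, and 2 were lower at an unadjusted p below 0.05 (CAT and GCLM). Of all tested genes, 16.8% were higher and 15.3% lower at that unadjusted threshold, the shares to set beside every such count. At an adjusted p-value below 0.05 with any fold change, 1 gene of the 9 was higher (HMOX1) and 1 lower (CAT), against 11.0% and 8.77% of all tested genes. The groups did not overlap in 3 of the 9 genes (HMOX1, CAT and TXNRD1), against 34.4% of all tested genes. These shares are near the background.

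**Figure D1:**
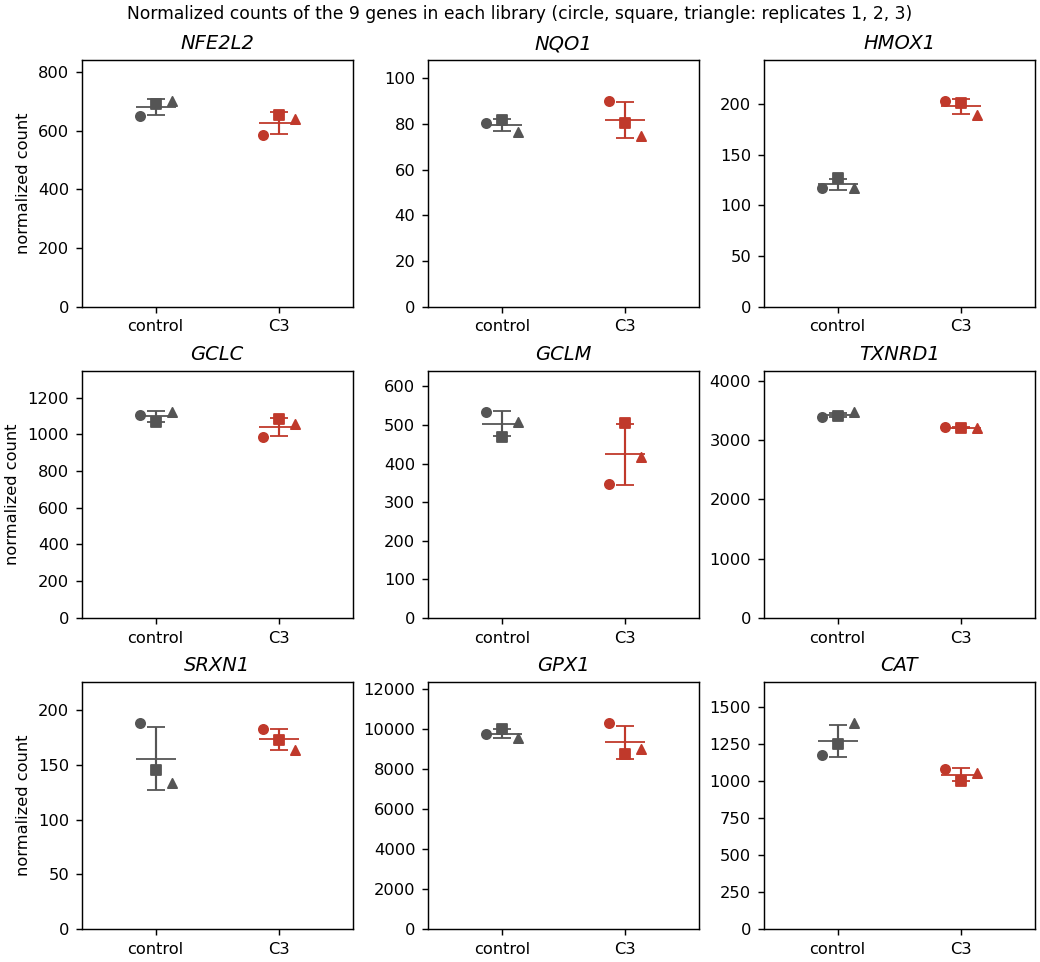
TMM-normalized counts of the 9 genes in each library (y axis, from 0), control in grey and C3 in red, with circle, square and triangle for replicates 1, 2 and 3 and bars for mean and SD (n = 3). HMOX1 stands apart between the groups (117 to 127 against 189 to 203), CAT and TXNRD1 separate by a smaller step, and the groups of the other 6 genes overlap.

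CAT (ENSG00000121691, chromosome 11, 34438934 to 34472060, forward strand) encodes catalase, the peroxisomal enzyme that splits hydrogen peroxide into water and oxygen. Its normalized counts were 1176, 1246 and 1387 in control and 1078, 995 and 1052 in C3 libraries. All C3 libraries were below all control libraries, by a margin smaller than the range within the control group. The mean was 1270 ± 108 in control and 1042 ± 42.2 after C3 treatment (SD, n = 3). At -0.28 on the log2 scale (SE 0.071, edgeR adjusted p = 0.0054), CAT passed the p-value gate and missed the fold change gate. It no longer passed the p-value gate without C3 replicate 2 (adjusted p = 0.031), C3 replicate 3 (0.026), control replicate 2 (0.021) or control replicate 3 (0.038), nor with library size alone (0.039). Its change of -17.9% had a 95% interval of -25.8% to -9.14%. By exact permutation p was 0.1.

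GPX1 (ENSG00000233276, chromosome 3, 49357174 to 49358605, reverse strand), the cytosolic selenoenzyme that reduces peroxides with glutathione, was the most abundant of the 9 genes. It had 9741, 10009 and 9545 normalized counts in control and 10275, 8718 and 9008 in C3 libraries. C3 replicate 1 was the highest and C3 replicate 2 the lowest of all 6, so the groups overlapped. Its log2 fold change of -0.066 (95% interval -0.20 to 0.072) did not pass (edgeR adjusted p = 0.54). It was -0.14 without C3 replicate 1 (adjusted p = 0.050) and -0.016 without C3 replicate 2 (adjusted p = 0.92). In GENCODE release 44, 39.9% of its exon bases lie in a further protein-coding gene of the same strand.

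**Figure D2:**
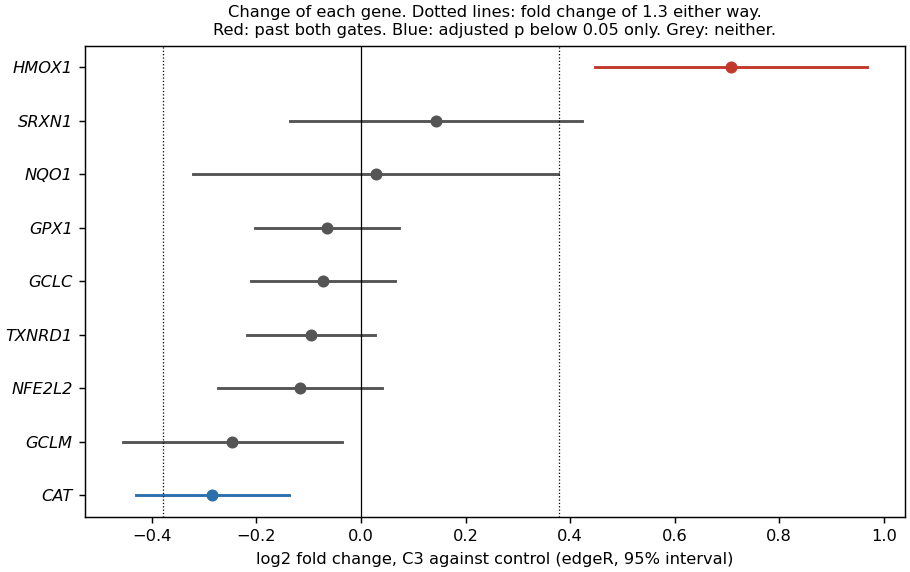
Log2 fold change of each gene after C3 treatment (x axis, edgeR, points) with its 95% interval (lines), red past both gates and blue past adjusted p below 0.05 only, with the fold change gate of 1.3 as dotted lines. Only the interval of HMOX1 (0.45 to 0.97) lies wholly beyond the gate. Those of CAT (-0.43 to -0.14) and GCLM (-0.46 to -0.036) cross it on the lower side, and that of SRXN1 (-0.14 to 0.42) on the upper side.

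NFE2L2 (ENSG00000116044, chromosome 2, 177218667 to 177392756, reverse strand) had normalized counts of 649, 692 and 701 in control and 585, 656 and 639 in C3 libraries. C3 replicate 2 lay above control replicate 1, and the groups overlapped. The mean was 681 ± 27.6 and 627 ± 36.9 (SD, n = 3). That is -0.12 on the log2 scale (SE 0.076, 95% interval -0.27 to 0.039, edgeR adjusted p = 0.31). The log2 fold change was -0.070 without C3 replicate 1 (edgeR adjusted p = 0.54) and -0.041 with library size alone (0.77). Exons of other genes cover 24.8% of its exon bases on the other strand and 13.6% on its own, and whether counting used strand was not stated in the sources used here. Over the 6 libraries, the log2 CPM of LAMP2 followed that of NFE2L2 most closely among 11854 genes with a mean count of at least 50 (Pearson's r 0.996), then FAM200A (0.983) and GARS1-DT (0.982). These values describe 6 libraries of 2 groups.

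NQO1 (ENSG00000181019, chromosome 16, 69706996 to 69726668, reverse strand), a quinone reductase widely used as an NRF2 readout, was the least abundant per length. It had 80.3, 81.7 and 76.4 normalized counts in control and 89.9, 80.4 and 74.5 in C3 libraries. The control range lay inside the C3 range. Its log2 fold change was 0.028 (edgeR adjusted p = 0.93), and the 95% interval of the change, -20.0% to 29.9%, was wide at this depth. An antisense gene shares 19.4% of its exon bases. Without C3 replicate 1 the value was -0.039.

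GCLC and GCLM encode the catalytic and the modifier subunit of glutamate-cysteine ligase, the rate-limiting enzyme of glutathione synthesis. GCLC (ENSG00000001084, chromosome 6, 53497341 to 53616970, reverse strand) had 1107, 1065 and 1120 normalized counts in control and 988, 1083 and 1056 in C3 libraries, with overlapping groups. Its log2 fold change was -0.073 (95% interval -0.21 to 0.066, edgeR adjusted p = 0.50), and -0.034 without C3 replicate 1 (adjusted p = 0.74). GCLM (ENSG00000023909, chromosome 1, 93885199 to 93909456, reverse strand) had 533, 470 and 509 in control and 347, 505 and 418 in C3 libraries. C3 replicate 1 was far below, and C3 replicate 2 within, the control range, a coefficient of variation of 18.7% in C3 against 6.32% in control libraries. GCLM had a log2 fold change of -0.25 (SE 0.10, edgeR unadjusted p = 0.024, adjusted p = 0.093). Without C3 replicate 2 it was -0.39 with an adjusted p-value of 0.0076, which passes both gates, and without C3 replicate 1 it was -0.13 with an adjusted p-value of 0.34, so that single libraries decide this value. With the replicate number as a block the adjusted p was 0.022. The core shown above lies close to the start of this gene.

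TXNRD1 (ENSG00000198431, chromosome 12, 104215779 to 104350307, forward strand), the cytosolic selenoenzyme that reduces thioredoxin with NADPH, had 3399, 3412 and 3471 normalized counts in control and 3215, 3207 and 3201 in C3 libraries. The C3 libraries were all lower and close together, and the step between the groups was small. The mean was 3428 ± 38.2 and 3208 ± 7.13 (SD, n = 3). On the log2 scale this was -0.096 (SE 0.059, 95% interval -0.22 to 0.027, edgeR adjusted p = 0.28), at a gene with the core at both annotated starts. By exact permutation p was 0.1. With library size alone the log2 fold change was -0.021 (edgeR adjusted p = 0.83).

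SRXN1 (ENSG00000271303, chromosome 20, 646615 to 653200, reverse strand), sulfiredoxin, returns overoxidised peroxiredoxins to work. It had 188, 145 and 134 normalized counts in control and 183, 173 and 164 in C3 libraries. Control replicate 1 was the highest of all, and the coefficient of variation of 18.4% in control libraries was the largest of that group. Its log2 fold change was 0.14 (95% interval -0.14 to 0.42, edgeR adjusted p = 0.51). It was 0.32 without control replicate 1, 0.049 without control replicate 3 and 0.093 without control replicate 2, in each case above an adjusted p of 0.05. Of its exon bases, 90.7% also belong to a readthrough gene of the same strand, which held 1 to 9 counts. How many reads of the shared bases were counted for SRXN1 is not known, so its counts and its level per length are uncertain.

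Across the 7 genes with an adjusted p-value above 0.05, the 95% intervals of the change ran from -27.1% (GCLM) to 34.1% (SRXN1). The 6 genes with a negative log2 fold change were NFE2L2, GCLC, GCLM, TXNRD1, GPX1 and CAT, a sign that 49.6% of all tested genes had. The median over the 9 genes was -0.073, against 0.0021 over all tested genes. Scaling by library size alone, which moved the median of all tested genes to 0.076, turned GCLC (0.0026) and GPX1 (0.0058) to the other side of 0.

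Levels between genes were compared per length, as counts per kilobase of merged exons scaled to a TPM total in each library. In control cells GPX1 was at 1261 ± 64.4, TXNRD1 at 94.4 ± 2.29 and CAT at 65.4 ± 3.24 (SD, n = 3). GCLC followed at 23.5 ± 0.85 and GCLM at 17.2 ± 1.39. The lowest levels were those of SRXN1 (11.4 ± 2.48), HMOX1 (9.67 ± 0.61), NFE2L2 (8.40 ± 0.17) and NQO1 (4.95 ± 0.32). GPX1 thus stood 13.4-fold above TXNRD1 and 255-fold above NQO1. The ranges of control libraries overlapped between neighbours only for SRXN1 and HMOX1. After C3 treatment HMOX1 was at 17.3 ± 0.60, which moved it from rank 7 to rank 5, above GCLM (15.8 ± 3.46) and SRXN1 (13.8 ± 0.37). This scale has no correction for composition, and differences between groups are read from the TMM fit only. The merged exons of NFE2L2 are long (14975 bases, against 5104 in its longest transcript), and with the longest transcript as length it took rank 5 and HMOX1 kept rank 7.

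**Figure D3:**
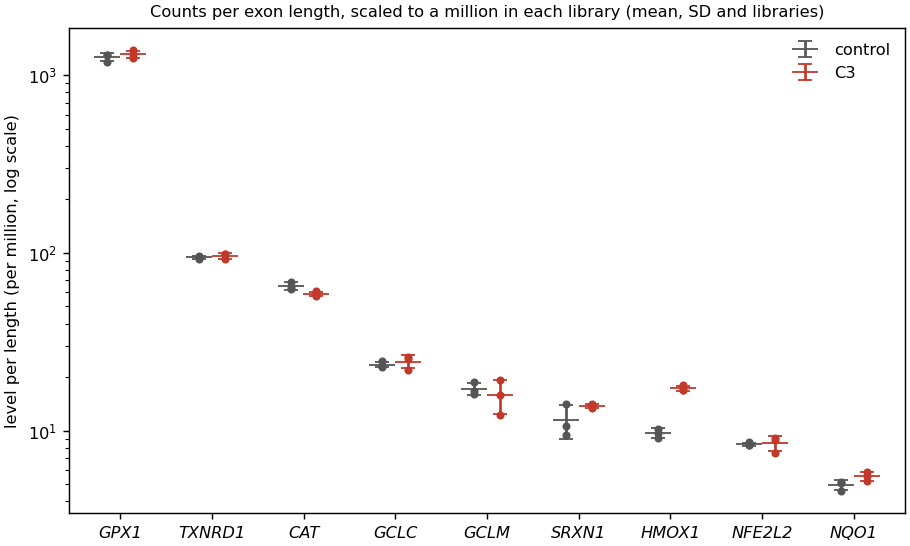
Level per length of the 9 genes (y axis, log scale, counts per kilobase of exons, TPM scale), ordered by control level, with points for libraries and bars for mean and SD (n = 3). GPX1 lies near 1261 in control cells and NQO1 near 4.95; HMOX1 is the gene whose groups stand farthest apart (9.67 and 17.3).

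Partner genes were then compared within each library, as log2 ratios of counts, which do not depend on scaling. For the 5 pairs set out first, GCLM to GCLC, NFE2L2 to KEAP1, NFE2L2 to BACH1, TXNRD1 to TXN and SRXN1 to PRDX1, the groups overlapped in every pair. The log2 ratio of NFE2L2 to KEAP1 was -3.21 ± 0.13 in control and -2.99 ± 0.21 after C3 treatment (SD, n = 3, exact two-sided permutation p = 0.3). That of GCLM to GCLC was -1.12 ± 0.064 and -1.31 ± 0.20 (exact permutation p = 0.3). Adjusted over the 5 pairs, the p-values were 0.5 to 0.7. Single libraries moved these differences. With each library left out, that of NFE2L2 to KEAP1 was 0.14 to 0.33 (highest without C3 replicate 1, lowest without C3 replicate 2). That of GCLM to GCLC was -0.30 to -0.094 (without C3 replicate 2 and without C3 replicate 1), and that of SRXN1 to PRDX1 was 0.15 to 0.50 (without control replicate 3 and without control replicate 1). At the larger end of each range the groups no longer overlapped. A further 3 pairs were chosen after the values had been seen, which makes 8 in all. The log2 ratio of HMOX1 to HMOX2, the constitutive haem oxygenase gene, was -2.62, -2.51 and -2.56 in control and -1.93, -1.99 and -1.91 in C3 libraries, without overlap and with a difference of 0.62. HMOX1 to NQO1 differed by 0.68 and CAT to GPX1 by -0.21, also without overlap. For each of the 3, p by exact permutation (two-sided) was 0.1, the smallest possible, and 0.27 when adjusted over the 8 pairs. With each library left out, the difference of CAT to GPX1 was -0.27 to -0.13 (without control replicate 1 and without control replicate 3). Its exact permutation p was 0.2 without control replicate 3 and without C3 replicate 1, 2 or 3.

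**Figure D4:**
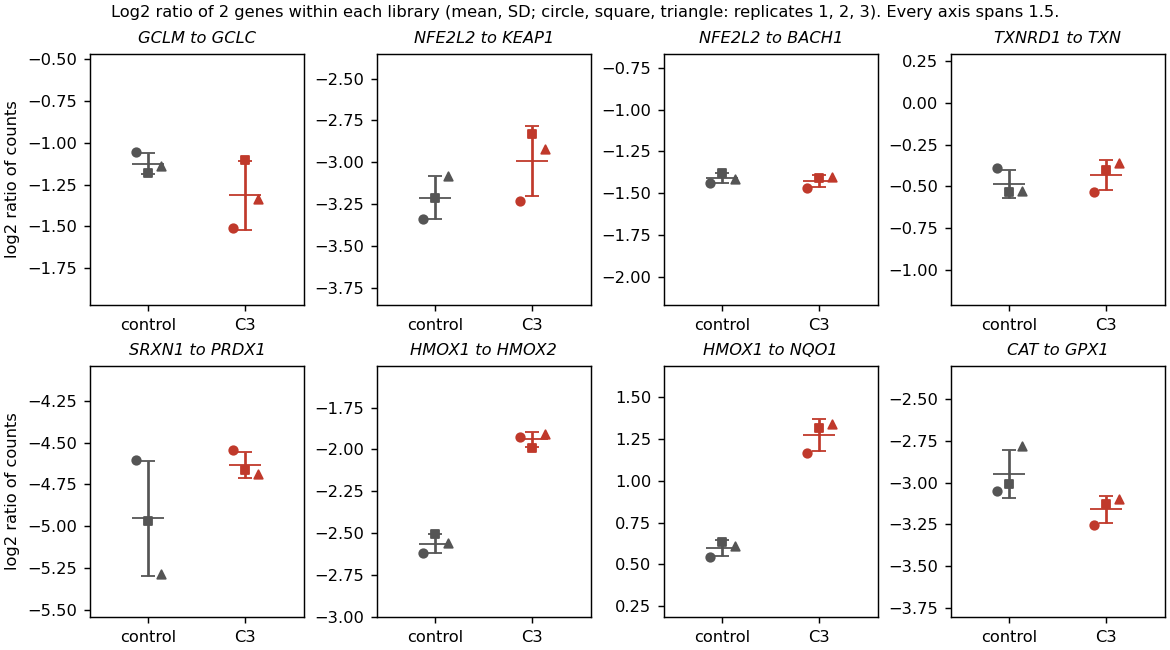
Log2 ratio of the counts of 2 genes in each library (y axis, each panel spanning 1.5), control in grey and C3 in red, with symbols for replicates 1, 2 and 3 and bars for mean and SD (n = 3). The groups overlap in the first 5 panels and are apart in HMOX1 to HMOX2, HMOX1 to NQO1 and CAT to GPX1.

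The wider pathway was followed in 7 lists of 130 genes, 113 of them tested. By both gates, 3 were called higher (MAFF, GGT1 and SESN3) and 2 lower (GSTZ1 and PGLS), against the 5.05% and 1.47% of all tested genes given above. At an adjusted p-value below 0.05 with any fold change, 5 were higher and 26 lower. These are 4.42% and 23.0% of the tested members, against 11.0% and 8.77% of all tested genes. The median log2 fold change was -0.066. Most of these shifts were small, and 24 of the 26 lower genes missed the gates. The number of lower genes was 13 without C3 replicate 3, 17 without C3 replicate 2, 17 without control replicate 2 and 34 without C3 replicate 1. In the same fits these were 11.8%, 15.0%, 15.2% and 30.9% of the tested members, against 4.02%, 5.43%, 4.69% and 12.7% of all tested genes. With library sizes as the sole scaling, the median was 0.0081 against 0.076 over all tested genes. There 18 members were lower (15.9%, against 4.04% of all genes) and 10 higher (8.85%, against 15.3%).

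Among 14 genes that control NRF2 or share its partners, 1 was called higher by edgeR, 0 lower and 13 not. DESeq2 and limma-voom each called 1 lower (NFE2), and 5 were lower and 2 higher at an unadjusted p below 0.05. MAFF, the gene of a small MAF protein, had 75.4, 88.0 and 91.9 normalized counts in control and 145, 117 and 148 in C3 libraries, without overlap. In log2 terms it rose by 0.69 (SE 0.16, edgeR adjusted p = 0.0025). The adjusted p-value rose to 0.026 without C3 replicate 3 and 0.021 without control replicate 1, and DESeq2 gave 0.0105. KEAP1, the adaptor that holds NRF2, had 6567, 6433 and 5943 normalized counts in control and 5492, 4665 and 4851 in C3 libraries. All C3 libraries were lower, with a log2 fold change of -0.34 (adjusted p = 8.5e-04) that missed the fold change gate. Without C3 replicate 1 it was -0.41 and passed both gates, while its adjusted p was above 0.01 without C3 replicate 3 (0.0117), control replicate 1 (0.0104) or control replicate 2 (0.0102). BACH1 had a log2 fold change of -0.10 (adjusted p = 0.26). NFE2, the relative of NFE2L2 that drives late megakaryocyte genes, went from 3201 ± 135 to 2466 ± 187 normalized counts (SD, n = 3). Its log2 fold change of -0.378 (adjusted p = 1.9e-04) lies at the gate of 0.379 and passed both gates by DESeq2, by limma-voom, with RLE factors, without C3 replicate 1 and without control replicate 3. Without the fold gate (adjusted p below 0.05), 5 genes of this list were lower and 2 higher, 35.7% and 14.3%, against 8.77% and 11.0% of all tested genes.

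Of 25 tested genes of glutathione synthesis and use, GGT1 was called higher, GSTZ1 lower and 23 not. GSTZ1, a glutathione transferase that acts in tyrosine breakdown, had 279, 299 and 290 normalized counts in control and 209, 145 and 151 in C3 libraries. At -0.79 on the log2 scale (SE 0.13, edgeR adjusted p = 5.7e-05) this was the largest called change of the pathway genes. GGT1, which cleaves glutathione outside the cell, had a log2 fold change of 0.67 (adjusted p = 0.0018). It lost its call without C3 replicate 3 (adjusted p = 0.019) and without control replicate 2 (0.018), and 56.5% of its exon bases lie in another gene of the same strand. The log2 fold changes of this list were positive for 14 and negative for 11 genes, with a median of 0.0057. At an adjusted p-value below 0.05, 2 were higher (8.0%) and 6 lower (24.0%), against 11.0% and 8.77% of all tested genes. Among those under the fold change gate were GLO1, a glyoxalase gene, at 0.28 (adjusted p = 0.0056), and GSS, the second enzyme of glutathione synthesis, at -0.27 (adjusted p = 0.0056). Both are named after their values were seen. GSTP1 had 0 counts in every library.

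Of 19 tested genes for thioredoxins, peroxiredoxins, other peroxidases and dismutases, 1 was called higher and 0 lower by edgeR, DESeq2 or limma-voom, with 8 lower and 1 higher at an unadjusted p below 0.05, against 15.3% and 16.8% of all tested genes. SESN3, a sestrin gene, had a log2 fold change of 0.48 (adjusted p = 0.0023), and its adjusted p-value was above 0.01 without C3 replicate 2 (0.0103), without C3 replicate 3 (0.0104) and without control replicate 1 (0.028). Another 3 genes were lower at an adjusted p-value below 0.05 (TXNIP, TXN2 and PRDX3, named after their values were seen), with log2 fold changes of -0.32, -0.27 and -0.22. They are 15.8% of the list, against 8.77% of all tested genes.

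Of 16 genes that supply NADPH, the electron donor of both thiol systems, 14 had a negative log2 fold change, against 49.6% of all tested genes. By each of the 3 tools 1 was called lower and 0 higher, with 7 lower and 0 higher at an unadjusted p below 0.05. PGLS, a gene of the oxidative pentose phosphate pathway, had 1966, 2109 and 2240 normalized counts in control and 1679, 1573 and 1402 in C3 libraries. It fell by 0.44 on the log2 scale (SE 0.071, edgeR adjusted p = 7.0e-05), and the value was -0.37, under the fold change gate, without C3 replicate 3 and with library size alone. Of the list, 6 genes were lower at an adjusted p-value below 0.05, or 37.5%, against 8.77% of all tested genes.

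Of 12 haem and iron genes, 0 were called by edgeR, DESeq2 or limma-voom, with 4 lower and 0 higher at an unadjusted p below 0.05, where 15.3% and 16.8% of all tested genes stood. NCOA4, the ferritin autophagy receptor, and FTH1, the heavy chain of ferritin and a further NRF2 target, had log2 fold changes of -0.32 (adjusted p = 5.2e-04) and -0.31 (adjusted p = 0.00205), under the fold change gate. With each library left out, the edgeR adjusted p of NCOA4 was 3.9e-04 to 0.0053. For FTH1 it was above 0.01 without C3 replicate 3 (0.04996), control replicate 1 (0.0123) or control replicate 2 (0.0155). BEST1 on the other strand covers 63.2% of the exon bases of FTH1. At an adjusted p-value below 0.05 the counts were also 4 lower, 33.3% against 8.77% of all tested genes, and 0 higher. Of 19 tested genes among other NRF2 targets, 0 were called by any of the 3 tools and 0 passed an adjusted p-value of 0.05, with 4 higher and 1 lower at an unadjusted p below 0.05. AKR1A1 (log2 fold change 0.20, adjusted p = 0.057) and CBR1 (0.18, adjusted p = 0.080) had the smallest p-values. AKR1A1 passed 0.05 without C3 replicate 2 (0.0094), with library size alone (0.010) and with the replicate block (0.022). It also passed without a count filter (0.037) and with a mean count of 50 (0.043). Without C3 replicate 1 its log2 fold change was 0.12 (edgeR adjusted p = 0.19). CBR1 passed 0.05 with library size alone (0.020) and without C3 replicate 1 (0.040). The genes AKR1C1, AKR1C2, AKR1B10, ABCC3 and ABCB6 were under the count filter, with at most 26 counts. Of 8 tested genes for NADPH oxidase and other superoxide sources, 0 were called by any of the 3 tools, with 0 higher and 3 lower at an unadjusted p below 0.05, against 16.8% and 15.3% of all tested genes. NCF4 (-0.20, adjusted p = 0.033) and RAC2 (-0.19, adjusted p = 0.034) had the smallest p-values and were the 2 of 8 genes lower at an adjusted p below 0.05, against 8.77% of all tested genes. With library size alone their adjusted p-values were 0.18 and 0.14. With each library left out they were 0.0081 to 0.17 and 0.0019 to 0.21, below 0.05 only without C3 replicate 1.

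**Figure D5:**
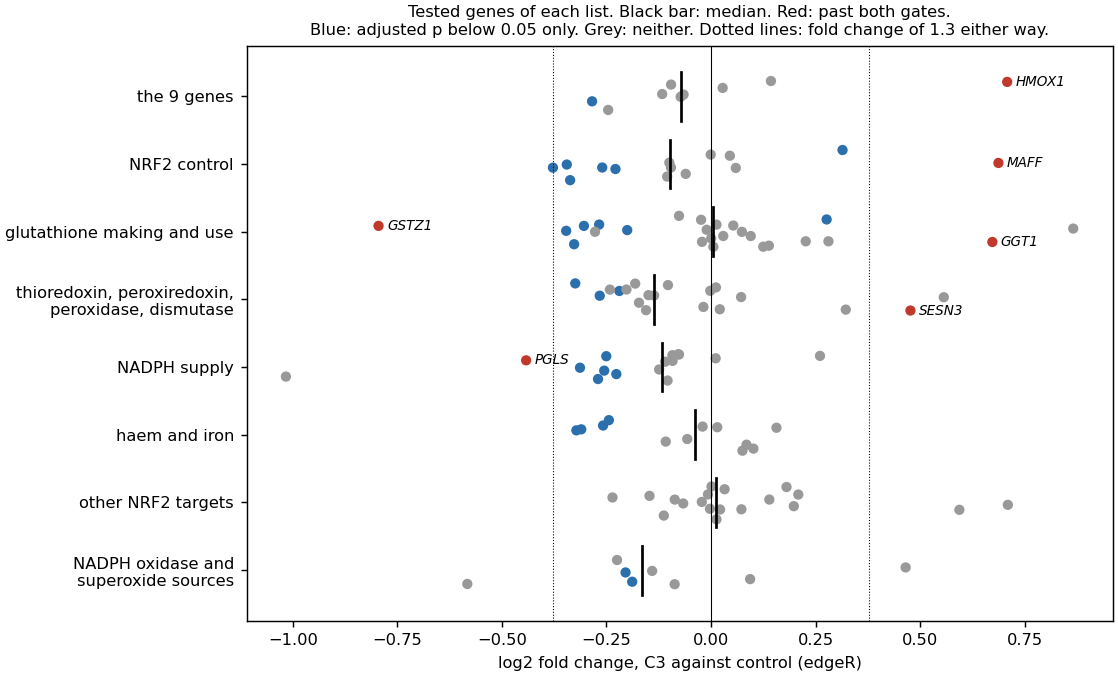
Log2 fold change after C3 treatment (x axis, edgeR) of the tested genes of the 9 genes described and of the 7 lists (rows), with black bars for medians and red points for genes past both gates and blue ones for genes at an adjusted p below 0.05 only. The medians lie between -0.16 (NADPH oxidase and superoxide sources) and 0.013 (other NRF2 targets), and the list of other NRF2 targets has no blue or red point.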

How the data were processed

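RNA of Meg-01 cells was sequenced in 3 control and 3 C3 libraries. Per the labels and the study's methods, the authors used fastp for read cleaning, STAR (2.6.1d) for mapping to GRCh38/hg38 and featureCounts (1.5.0-p3) for counting by gene. Per the submitters' processing notes and the values, the deposited values are raw counts without normalization. Neither annotation release nor use of strand is stated in these sources. Every column was assigned to a sample by its name and the title.

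Genes that reached 10 counts in 3 or more libraries (15078, with 99.9% of all counts) were tested with edgeR (4.0.16, R 4.3.3), using TMM factors, the quasi-likelihood test and Benjamini-Hochberg adjustment over all of them. Standard errors are the log2 fold change over the square root of F, and 95% intervals use the t distribution with the total degrees of freedom of the fit. The spread within groups corresponded to a coefficient of variation of 6.21%, and near 100 counts counting error was the larger part. Limits for a count of 0 and counting precision cover counting error only. Symbols, coordinates and exon lengths came from GENCODE release 44 on GRCh38, which held 58207 of the 58735 identifiers. Promoter sequences are those of RefSeq. Ratios used a pseudocount of 0.5.

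The genes and lists were chosen with earlier results of these data known. Named are the 9 genes, the called genes of each list or else the 2 with the smallest p-values, and KEAP1, BACH1 and NFE2, with exceptions marked. Alternatives were DESeq2 (1.42.0), limma-voom (limma 3.58.1), scaling by library size only, RLE factors, a filter on a mean count of 50, leaving the filter out, the replicate number as a block, and each library left out. The fits were tested on simulated data.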

Additional observations from a re-analysis of the deposited data

How the results depend on the processing

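HMOX1 was called in all 13 alternatives of the fit, with log2 fold changes of 0.69 to 0.78. CAT had an adjusted p-value of 5.7e-04 to 0.039 in them and passed the fold change gate in none. The number of the 9 genes called lower was 0 to 1 with each library left out, the 1 being GCLM without C3 replicate 2. The number of pathway genes called was 0 to 3 (higher) and 1 to 5 (lower) with each library left out, and 1 lower with library size alone. At an adjusted p-value below 0.05, counted after the data were seen, 10 pathway genes were higher with library size alone, and 13 to 34 were lower with each library left out. Over all tested genes, 129 to 340 were called lower with each library left out and 100 with library size alone, against 222, with 1025 called higher there against 761. Signs turned for NQO1 (-0.039 to 0.098 with each library left out), for GCLC (0.0026) and GPX1 (0.0058) with library size alone, and for the log2 ratio of NFE2L2 to BACH1 (-0.028 to 0.0063 with each library left out). In these cases the cause was not tested. Same-numbered libraries share only a number, with correlations of their deviations from the group means of 0.021, -0.047 and 0.030. With the replicate number as a block, edgeR called 909 genes higher and 268 lower, and 1 of the 9 genes (HMOX1, log2 fold change 0.71) higher. For the ratios the pairing leaves the difference as it is by arithmetic, and its smallest exact p-value is 0.25. Depth limits the genes near 100 counts, NQO1, HMOX1 and SRXN1.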
